A study of Homo sapiens with 3 samples.

Results

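Caspases are cysteine proteases that cut their substrates after aspartate and are made as inactive precursors. CASP8 and CASP10 are started at death receptors, CASP9 on the apoptosome and CASP2 on the PIDDosome, and CASP6 is 1 of the executioners that take the lamins apart. CASP1 and CASP4 belong to the inflammatory branch, in which CASP1 matures interleukin-1β and CASP4 senses bacterial lipopolysaccharide. The amount of a caspase mRNA is not a measure of protease activity, since cleavage of the precursor sets the activity.

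The members were CASP1, CASP2, CASP4, CASP6, CASP8, CASP9 and CASP10, and every probe whose array accession belonged to 1 of these genes was taken. That gave 7 genes and 11 probes, out of 22439 named genes and 58201 probes. A549 cells, a human lung adenocarcinoma line, were treated for 48 h with 0.1% DMSO (the control), with cordycepin at 60 μg/mL or with cordyceps at 100 μg/mL. Cordycepin is an adenosine analog that lacks the hydroxyl group at the sugar's 3′ position, and cordyceps is the name of the fungus that makes it. All 3 groups were grown, per the labels, in DMEM that held 10% serum, zinc sulfate at 16.7 μM, troglitazone at 10 μM and nicotinamide at 10 mM, and the labels name no vehicle for the treated cells. RNA of each group was hybridised to 1 single-colour Agilent array. With 1 array per group there was no replicate, so no difference below has a test or a p-value, and a difference between arrays cannot be told apart from a difference between cell cultures. Likewise, more of an mRNA in every cell and the same mRNA in more of the cells cannot be told apart in RNA from a whole culture.

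The value of a probe was the scanner software's background-corrected fluorescence, called signal here, and the errors given with signals are the software's own error for that spot. Ratios are log2 differences after subtraction of each array's 75th percentile, which stood at signals of 260.1 (control), 224.3 (cordycepin) and 260.2 (cordyceps). A probe counted as higher or lower at a 2-fold difference. The spread between the 2 brightest probes of the same gene, over 3356 genes, gave a technical SD of 0.25 (log2) for a single probe's cordycepin ratio and 0.20 for its cordyceps ratio by a robust estimate from the median absolute difference, and 0.35 and 0.34 as ordinary SDs.

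The array design and the cell line were checked first. Between 42.1% and 49.0% of probes were well above background, with the fewest on the cordyceps array. Of 8 epithelial genes, 7 were detected on the control and cordycepin arrays and 5 on the cordyceps array, and KRT18 reached a signal of 240700 on the control array. SFTPB, a surfactant protein of alveolar type 2 cells, was not detected on any array. SFTPC, also a surfactant protein, was detected at signals of 85 in the control and 55.7 with cordycepin. NKX2-1 was detected on the same arrays at 22.7 and 38.7. With cordyceps neither gene was detected, at signals of 34.7 for SFTPC and 33.5 for NKX2-1. The lowest signal of a detected probe was 18.6 in the control, 21.8 with cordycepin and 34.5 with cordyceps. The cordyceps array thus had a higher detection floor, and NKX2-1 was undetected there at a signal above its control signal. Of 5 genes of other cell types, CD3E was not detected on any array, whereas COL1A1 was detected on all 3 arrays and PTPRC by 2 of its 5 probes. In the corner of highest rows and columns, 1284 spots (11.2%) of the cordyceps array had an outlying local background, against 0 in the same place in the control and 0 with cordycepin. The CASP1 probe and 1 of the 2 CASP2 probes lie in that corner.

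Of the 11 caspase probes, 10 were well above background on all 3 arrays. With cordycepin, 3 of these 10 were at least 2-fold higher than in the control, where 7.07% of 30164 probes tested on the array were as well. None was 2-fold lower, against 3.62% of all probes. The 3 higher probes were the single CASP1 probe and 2 of the 4 CASP10 probes, so they belong to 2 genes. The median cordycepin ratio of the 10 probes was 0.32 on the log2 scale, and that of all 25996 probes measured on both arrays was -0.03. With cordyceps, none of the 10 was 2-fold higher and none lower, against 5.21% and 3.21% of 29259 probes. The median cordyceps ratio of the caspase probes was -0.07, and 0.20 when arrays were scaled to their median instead, beside -0.12 and 0.15 for all 23740 measured probes. CASP2, CASP4, CASP6, CASP8 and CASP9 thus lay within 2-fold of the control under both treatments.

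**Figure D1:**
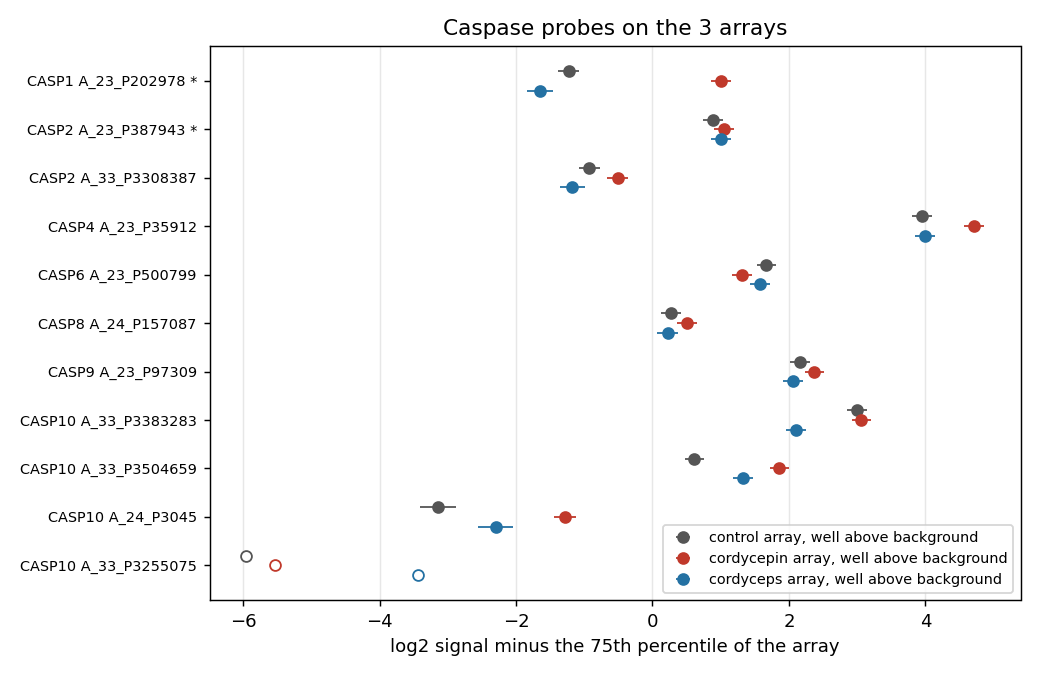
Scaled log2 signal of each of the 11 caspase probes on the control, cordycepin and cordyceps arrays. Scaling subtracted the percentile of each array that is given in the text. Bars show the scanner software's error, open circles mark spots not well above background and an asterisk marks corner probes. CASP1 lay at 1.005 on the cordycepin array, at -1.229 on the control array and at -1.656 on the cordyceps array. CASP9 lay between 2.063 and 2.374 on all 3.

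CASP1, the inflammasome's protease, had the highest cordycepin ratio of the members. Its probe A_23_P202978 gave a signal of 111 ± 11.8 in the control, 450 ± 45.2 with cordycepin and 82.6 ± 10.9 with cordyceps. The cordycepin signal stood alone, and the control and cordyceps signals were the close pair. Cordycepin over control was 4.70-fold, a log2 ratio of 2.23 with a software error of 0.21, and 0.331% of all measured probes had a ratio as high. The cordyceps ratio was -0.43, about as far from 0 as those of many probes, since 33.6% of all probes lay as far or farther. The local background at this spot was 46 in the control, 44 with cordycepin and 41 with cordyceps, and the software marked none of these as outlying. Among the spots around it on the cordyceps array, 194 were measured, with a median ratio of -0.14, and 6.70% of them differed by 2-fold or more. The probe's own sequence was not used here, so its separation from CARD16, a decoy gene next to CASP1 on chromosome 11 and close to it in sequence, was not checked.

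CASP4 lies on the same chromosome 11 stretch, with CASP5 between it and CASP1. CASP4 had a signal of 4030 ± 403 in the control, 5872 ± 587 with cordycepin and 4142 ± 414 with cordyceps. The cordycepin array was the high one again, by 1.69-fold (log2 0.76), which is short of 2-fold, and the cordyceps ratio was 0.04. CASP5, another inflammatory caspase and not a member, was at 1162, 1601 and 1261 in the same order, with ratios of 0.68 and 0.12. The 3 detected genes of this stretch thus all had their highest signal on the cordycepin array, and CASP1 alone passed 2-fold. A cordycepin ratio as high as that of CASP4 was found at 7.49% of all measured probes. The share of all probes with their highest signal on the cordycepin array was not counted. Cross-reaction between the probes of these related genes was not checked. CASP12, which is a pseudogene in most people, and CARD18, a further decoy, were not detected on any array.

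The initiator CASP10 was read by 4 probes, and these differed among themselves. The probe sequences were not used here, so the transcripts given are those the array design names for each probe. The probe A_33_P3383283, listed for transcript NM_032977, had a signal of 2071 ± 207 in the control, 1874 ± 188 with cordycepin and 1117 ± 112 with cordyceps. Its cordycepin ratio was 0.07, and its cordyceps ratio of -0.89 was the lowest of the 10 caspase probes, with 4.21% of all probes as low. The other probe listed for that transcript, A_33_P3504659, went the other way, with 399 ± 40.1 in the control, 815 ± 81.6 with cordycepin and 651 ± 65.5 with cordyceps. The control was the lowest array here, at 2.37-fold (log2 1.25) below cordycepin and 1.63-fold (0.71) below cordyceps.

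The other CASP10 probes were listed for transcript NM_032974. A_24_P3045 was dim, with 29.4 ± 5.46 in the control, 91.9 ± 10.4 with cordycepin and 52.9 ± 9.45 with cordyceps. It was 3.63-fold higher with cordycepin (log2 1.86, software error 0.31) and 1.80-fold, short of the limit, with cordyceps (0.85). A_33_P3255075, listed for the same transcript, was not well above background on any array, with signals of 4.20, 4.82 and 24.0. The cordycepin call was lost for A_33_P3504659 with scaling to the array median (log2 0.98) and for A_24_P3045 with normexp background correction (0.94). Between probes the direction differed, as the brightest probe had a ratio below 0 with cordyceps and near 0 with cordycepin, and the other 2 detected probes had ratios above 0 with both.

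The ratios of the 3 detected CASP10 probes spanned 1.79 log2 units with cordycepin and 1.74 with cordyceps. Among 480 genes with 3 measured probes, 6 (1.25%) spanned as much with cordycepin and 21 (4.38%) with cordyceps, and the median span over all 3356 genes with several probes was 0.29 and 0.23. CASP10 was therefore among the genes whose probes differed most. The median over its probes was 1.25 with cordycepin and 0.71 with cordyceps, so with cordyceps it had the opposite sign to the brightest probe.

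**Figure D2:**
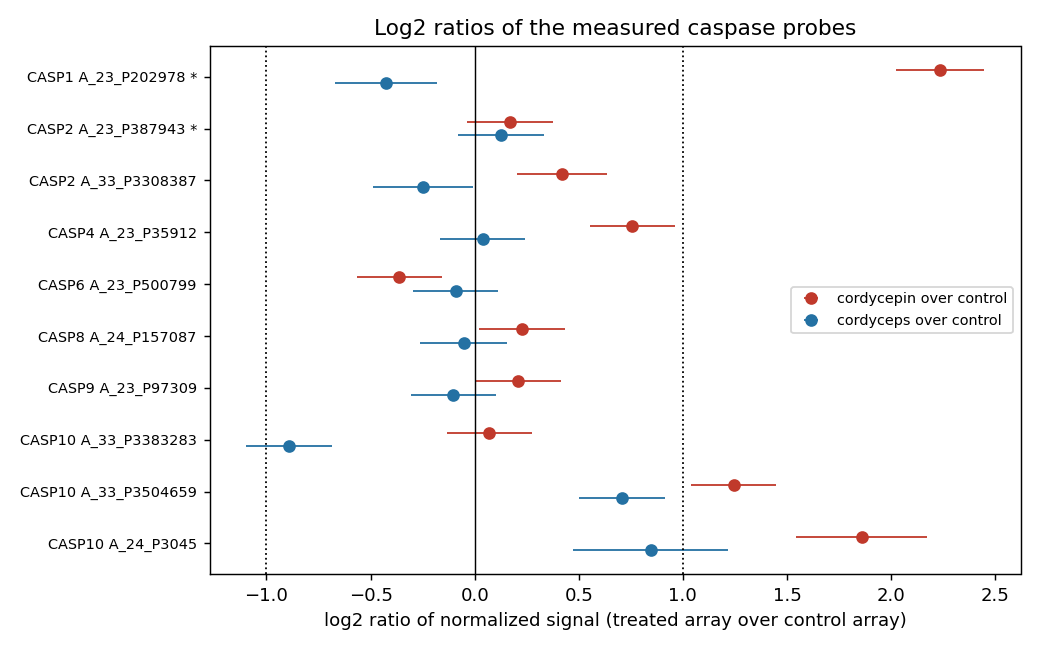
Log2 ratios of the 10 caspase probes measured on all arrays, cordycepin over control and cordyceps over control, with bars for the software error and dotted lines at 2-fold. CASP1 at 2.23 and the CASP10 probes at 1.86 and 1.25 lie above the line with cordycepin, and no probe passes either line with cordyceps.

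CASP8, the initiator most closely related to CASP10 and its neighbour on chromosome 2, had a signal of 315 ± 31.8 in the control, 318 ± 32.2 with cordycepin and 303 ± 31.4 with cordyceps. The 3 signals lay within the software's error of each other before scaling, and the scaled ratios were 0.23 and -0.05. CFLAR, on the other side of CASP10, encodes an inactive CASP8-like protein that holds CASP8 back. Its 4 probes had cordycepin ratios of 0.82, 0.34, -0.26 and -0.55 and cordyceps ratios between -0.14 and 0.08, so none reached 2-fold.

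CASP9, which the apoptosome activates, had a signal of 1166 ± 117 in the control, 1163 ± 116 with cordycepin and 1087 ± 109 with cordyceps. Its ratios of 0.21 and -0.10 were within the technical SD of a single probe. CASP2 was read by 2 probes. A_23_P387943, in the corner, gave 479 ± 48.2, 465 ± 46.8 and 523 ± 53.0 on the control, cordycepin and cordyceps arrays, and ratios of 0.17 and 0.13. Its local background was marked as outlying on the cordyceps array, where 19.1% of the 204 measured spots around it differed by 2-fold or more. A_33_P3308387, outside the corner, gave 137 ± 14.6, 158 ± 16.8 and 115 ± 14.7, and ratios of 0.42 and -0.25. The CASP2 probes were thus on opposite sides of 0 with cordyceps and on the same side with cordycepin, always by less than 2-fold.

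CASP6, the executioner that cuts lamin A, was the single member whose cordycepin ratio was below 0 at its brightest probe. Its signal was 828 ± 83.0 in the control, 556 ± 55.8 with cordycepin and 778 ± 78.2 with cordyceps, so the cordycepin array was the low one. The ratio was -0.36 with cordycepin and -0.09 with cordyceps, and 21.8% of all probes had a cordycepin ratio as low.

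The promoters of CASP4 and CASP6 are shown because these genes had the highest and the lowest cordycepin ratio among the members that stayed within 2-fold, and were chosen after these values were seen. They come from RefSeq on build GRCh38.p14, run from 250 bases before the transcript start to 50 after it, and have each CG pair in capitals. CASP4 is at chr11:104968525-104968824 on the minus strand and CASP6 at chr4:109703396-109703695 on the minus strand.
CASP4: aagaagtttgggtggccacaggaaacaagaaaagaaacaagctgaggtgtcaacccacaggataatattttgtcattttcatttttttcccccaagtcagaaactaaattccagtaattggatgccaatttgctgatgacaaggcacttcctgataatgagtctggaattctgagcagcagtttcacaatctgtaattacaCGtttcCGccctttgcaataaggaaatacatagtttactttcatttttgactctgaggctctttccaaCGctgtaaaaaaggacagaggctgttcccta
CASP6: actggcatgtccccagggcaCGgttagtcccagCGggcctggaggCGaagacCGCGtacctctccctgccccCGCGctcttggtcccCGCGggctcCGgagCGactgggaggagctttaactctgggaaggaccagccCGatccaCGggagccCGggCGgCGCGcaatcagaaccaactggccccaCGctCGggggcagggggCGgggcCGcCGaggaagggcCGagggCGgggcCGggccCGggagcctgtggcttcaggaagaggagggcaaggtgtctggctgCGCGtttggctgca
The CASP4 promoter was 39.7% G and C with 3 CG pairs, and the CASP6 promoter was 72.0% G and C with 28. The median over 35116 promoters was 58.7% with 14 CG pairs. The reference table held promoters of 5 of the 7 members, and those of CASP8 had 5 or 6 CG pairs, those of CASP9 had 30 and 36, and the CASP2 promoters differed, with 35 and 4. These letters describe the genes, and no measurement here bears on what binds them.

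Cordycepin and cordyceps were also set against each other, although the doses of 60 and 100 μg/mL differ and cordyceps is not a single compound. CASP1 was 6.32-fold higher on the cordycepin array (log2 2.66) and the CASP10 probe A_24_P3045 was 2.02-fold higher (1.01). These 2 were the caspase probes called higher in that ratio, where 7.88% of 28672 probes were. The bright CASP10 probe A_33_P3383283 was just short of the limit at 0.96, CASP4 was at 0.72 and CASP6 at -0.27. Both ratios to the control rest on the same control array and are not independent of each other.

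**Figure D3:**
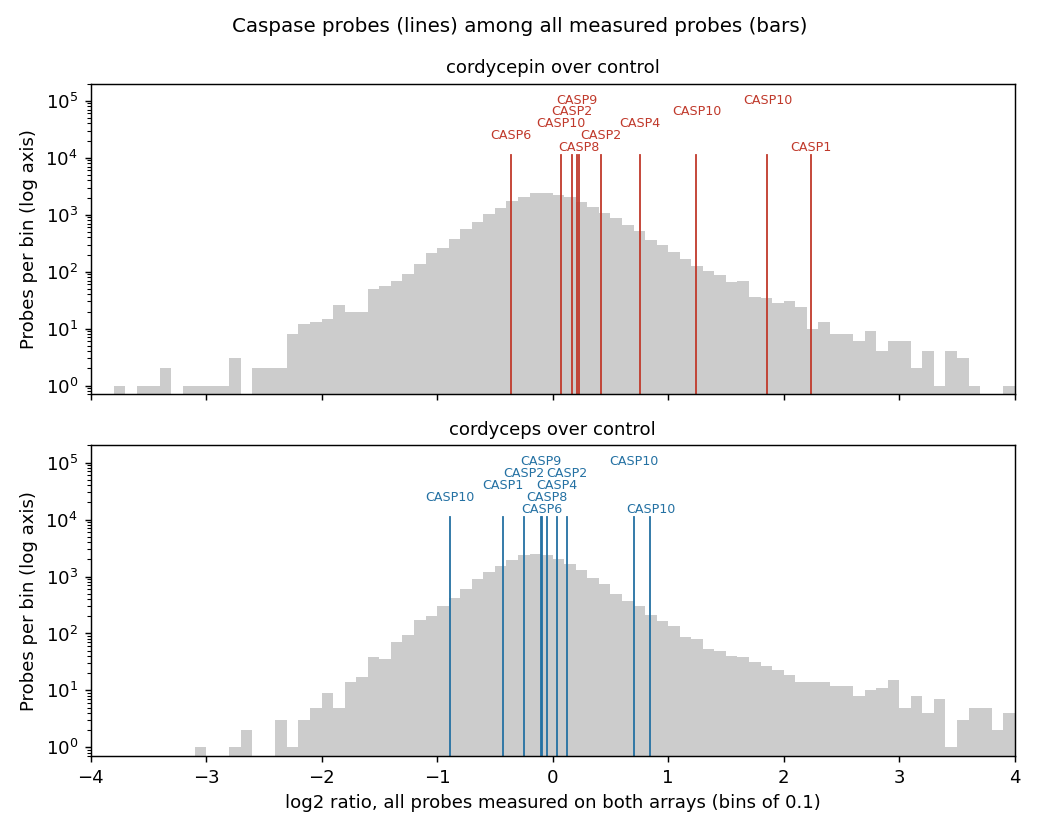
Number of probes (log axis) by log2 ratio in bins of 0.1, for cordycepin over control and cordyceps over control, with lines at the ratios of the caspase probes; ratios beyond the ends of the axis are not drawn. With cordycepin the CASP1 line at 2.23 is in the upper tail, and with cordyceps all caspase lines lie between -0.89 and 0.85.

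Genes that act with the caspases were described from 6 lists of 70 genes, of which 67 had a probe and 55 could be tested, each by its brightest probe. With cordycepin 4 of the 55 were at least 2-fold higher and 1 lower, against 5.95% and 3.57% of 15917 named genes. Their median ratio was -0.02, beside -0.05 for all named genes. With cordyceps 0 were higher and 2 lower, against 4.19% and 3.15% of 15602 named genes, with medians of -0.05 and -0.11. These counts were close to the background in both comparisons.

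Of the 8 genes listed with the apoptosome and the PIDDosome, 1 was called. The list also holds mitochondrial proteins that are part of neither complex, such as DIABLO. APAF1, the scaffold on which CASP9 is activated, was dim, with 40.3 in the control, 74.0 with cordycepin and 21.5, not well above background, with cordyceps, and was 2.13-fold higher with cordycepin (log2 1.09). The call ended with scaling to the array median (0.83), with no scaling (0.88) and with normexp (0.69). DIABLO, a mitochondrial protein that frees caspases from their inhibitors, was the brightest of the list and had ratios of -0.11 and -0.32. Its other probe, A_23_P47800, gave -0.04 and 0.14, so the sign differed between probes with cordyceps. The list's median was -0.14 with cordycepin and -0.32 with cordyceps. Of the 12 death receptor and adaptor genes 11 were tested and 0 were called in either comparison, with medians of 0.03 and 0.08. RIPK1, a kinase of the receptor complex, was at -0.91 with cordycepin and passed 2-fold with scaling to the array median (-1.17) and with no scaling (-1.12). The brightest of these, the death receptor TNFRSF10B, had ratios of 0.03 and 0.45.

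The list of inflammasome parts and CASP1 decoys had 15 genes, 13 with a probe and 6 detected. NOD2, a sensor of bacterial cell walls, was 2.41-fold higher with cordycepin (log2 1.27), at dim signals of 23.9 in the control, 49.8 with cordycepin and 43.2 with cordyceps. The brightest gene, the NOD2 partner kinase RIPK2, was at -0.26 and 0.21. PYCARD, the adaptor that joins CASP1 to its sensors, and the sensors NLRP1, NLRP3, NLRC4, NLRP6 and AIM2 were not detected on any array. The sensors MEFV, NOD1 and CARD8 were detected on all 3 arrays. Their cordycepin ratios were 0.24, -0.02 and -0.15 and their cordyceps ratios -0.83, -0.62 and -0.38. The CARD8 probe used lies in the corner. Its dimmer probe outside the corner, A_21_P0000098, gave -0.84 and 0.12, so the CARD8 probes differed in sign with cordyceps. NOD2 lost its call with normexp background correction (log2 0.54). The median of the 6 detected genes was -0.09 with cordycepin and -0.43 with cordyceps, beside -0.05 and -0.11 for all named genes.

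Among the 10 genes on the list of caspase inhibitors, 8 were tested. Not every gene on that list blocks a caspase itself. BIRC3 gave 4354 in the control, 8749 with cordycepin and 5642 with cordyceps, and was 2.33-fold higher with cordycepin (log2 1.22, and 0.96 with scaling to the array median, which ends the call). BIRC7 gave 489, 181 and 790 in the same order, and was 2.33-fold lower with cordycepin (-1.22, and -0.98 with normexp, which ends the call). BIRC5, or survivin, also a protein of dividing cells, gave 11790, 9652 and 4627, and was 2.55-fold lower with cordyceps (-1.35), at a probe with spots both inside and outside the corner. With the corner left out, the spots of this probe elsewhere on the array gave -1.24. These inhibitors moved in both directions, and the list's median was -0.16 with cordycepin and -0.12 with cordyceps.

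Of 20 substrates 19 were tested. IL1B, the precursor that CASP1 cuts into interleukin-1β, gave 1014 in the control, 2809 with cordycepin and 1713 with cordyceps, and was 3.21-fold higher with cordycepin (log2 1.68). The cordyceps ratio of IL1B was 0.76. IL18, another cytokine of the list, went the other way with cordycepin. It gave 2564, 1239 and 2430 in the same order, with ratios of -0.835 and -0.08. With cordycepin, IL18 passed 2-fold lower with scaling to the array median (-1.10) and with no scaling (-1.05). LMNB1, a lamin cut by executioners, gave 468, 399 and 161, and was 2.91-fold lower with cordyceps (-1.54). LMNA, the lamin cut by CASP6, was the brightest substrate, with ratios of 0.31 and -0.27 at a probe in the corner. Its probe A_33_P3311285 outside the corner gave 0.32 and -0.55. The medians of the substrates were -0.01 and -0.05.

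Of the 54 listed genes measured on all arrays, those whose pair of ratios lay nearest to that of CASP1 were BIRC3, IL1B and CFLAR, with BIRC3 nearest at a distance of 1.29 log2 units and IL1B next at 1.30. None was close, since CASP1 itself had a cordycepin ratio of 2.23 and the nearest had 1.22.

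**Figure D4:**
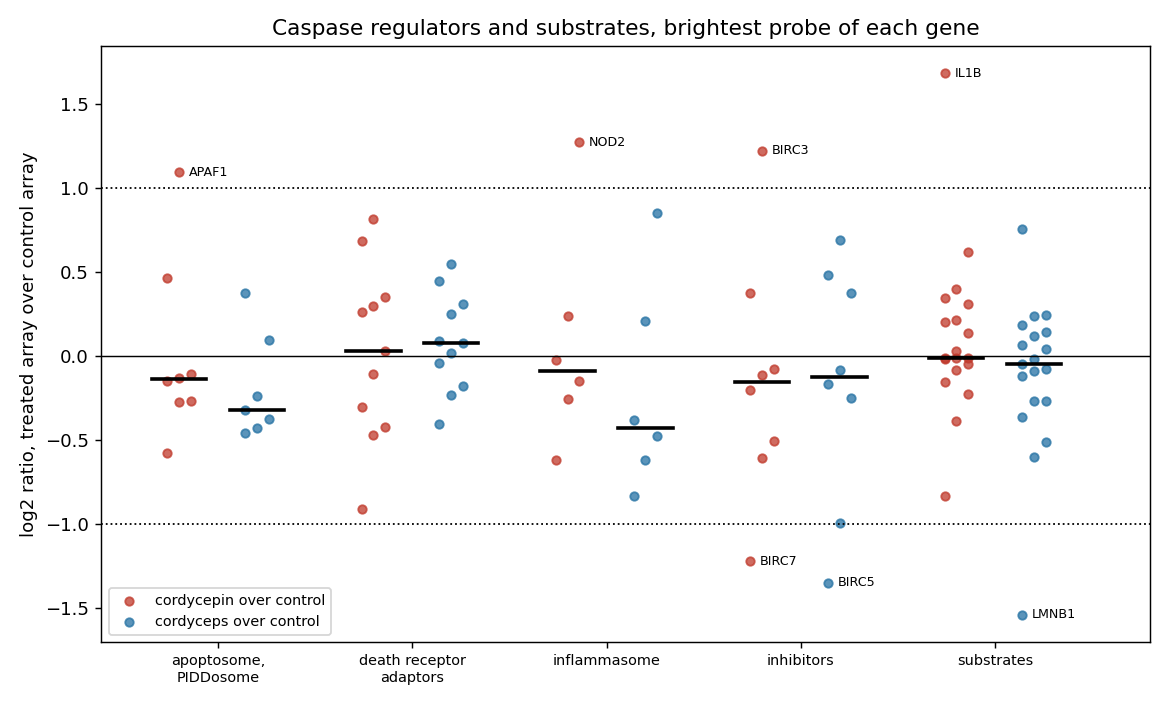
Log2 ratios of the genes of 5 of the lists by brightest probe, 1 point a gene, for cordycepin over control and cordyceps over control, with a black line at each list's median and names at genes past 2-fold. The medians lie between -0.16 and 0.03 with cordycepin and between -0.43 and 0.08 with cordyceps, and the named genes are few in each list.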

How the data were processed

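Gene expression in A549 cells was measured on 1 single-colour Agilent array per condition. The deposited scanner files hold fluorescence intensities, which the authors extracted with Agilent Feature Extraction 11.5.1.1. The labels and files give a single Cy3 channel, and the study's methods also name Cy5. The authors' deposited value table also holds intensities, and between 99.878% and 99.931% of its values lay within 0.1% of the mean processed signal of the probe.

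Control and flagged spots were left out (63 to 106 spots of 60901 an array), spots of a probe were averaged, and log2 signals were scaled to each array's 75th percentile, with Python 3.11.15, numpy 2.4.6 and pandas 2.3.3. A probe was tested where at least 1 of the arrays compared detected it, and a probe seen on 1 array gave a bound. Alternatives used R 4.3.3 and limma 3.58.1 (normexp with an offset of 50, and quantile normalization). No test across samples was run, as each group has 1 array, and the calling step was tested on simulated data. Signal over background limits the precision of dim probes.

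Named were all 7 members, the genes of each list called at 2-fold or the brightest of its list, and the 3 genes nearest CASP1 in pattern. Other genes are named as cell type markers, from their place beside a member, or as undetected. RIPK1 and IL18 are named for passing 2-fold under another scaling, and MEFV, NOD1 and CARD8 as detected sensors. These other genes were chosen after their values were seen. The members and lists were chosen with earlier results of these data known. Accessions were matched to RefSeq symbols, which named 31104 of 58201 probes. Promoter motifs were to be given only for members called alike under both treatments, and there were none. The search itself was run on the promoters of 5 of the 7 members, and its hits are not reported here. Protein sequences were not used here. Some genes are not reported here.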

Additional observations from a re-analysis of the deposited data

How the results depend on the processing

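No paired analysis was possible because each condition has 1 array. Of the recomputed counts and medians, 121 stayed within the limits set for them and 21 moved, and of single-probe and single-gene ratios 536 stayed and 74 moved. None of these reversed a call. Scaling to the median shifted the median of all probes from -0.03 to -0.29 with cordycepin and from -0.12 to 0.15 with cordyceps. It gave caspase medians of 0.059 and 0.20 and a listed-gene median of -0.29 with cordycepin and 0.22 with cordyceps, 2 listed genes higher and 3 lower with cordycepin, and 1 caspase probe and 2 listed genes higher with cordyceps. Under it the brightest probes of CASP2, CASP8, CASP9 and CASP10 fell below 0 with cordycepin, at -0.09, -0.04, -0.05 and -0.19. It put CASP6, CASP8 and CASP9 above 0 with cordyceps, at 0.18, 0.22 and 0.17. No scaling gave 3 listed genes lower with cordycepin. Normexp gave 2 listed genes higher and 0 lower with cordycepin, and no detection filter gave 1 caspase probe higher with cordyceps. At 1.5-fold, 8 listed genes were higher and 5 lower with cordycepin, and with cordyceps 2 caspase probes were higher and 1 lower, and 3 listed genes higher and 6 lower. At 3-fold, 1 listed gene was higher and 0 lower with cordycepin, and 0 lower with cordyceps. The number of caspase probes higher with cordycepin ranged from 2 to 4. CASP1 stayed above 2-fold at the alternatives' lowest value of 1.76, under normexp, where the CASP10 probe A_24_P3045 was at 0.94. The CASP10 probe A_33_P3504659 was at 0.98 under median scaling. Leaving out the corner moved the median of all probes with cordyceps from -0.12 to -0.006. It also removes the CASP1 probe, so the CASP1 value has no check outside the corner.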
